A study of Mus musculus with 6 samples.

Results

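AP-1 and the immediate early genes were followed in infarcted mouse heart as 10 genes taken by name: Fos, Fosb, Fosl1, Fosl2, Jun, Junb, Egr1, Egr2, Atf3 and Ier3. They are 10 of the 36047 genes to which the quantified transcripts were joined, and all 10 were among the 20094 genes that were tested. RNA came from the infarct area of C57BL6 mice aged 12 weeks, dissected 48 h after ischemia and reperfusion (I/R), in which the left anterior descending coronary artery is tied and then released. One group of 3 mice received LGK974 by oral gavage and the other group of 3 mice received DMSO, the solvent, in the same way. LGK974 inhibits Porcupine, which lipidates Wnt proteins in the endoplasmic reticulum, a step without which they are not secreted. Both groups had the injury, the study's methods give female animals for the procedure, and there was no uninjured group among these libraries. The comparison therefore addresses what LGK974 did to these genes within injured tissue, and not what injury did.

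AP-1 is a dimer of basic leucine zipper (bZIP) proteins. A Fos protein (Fos, Fosb, Fosl1 or Fosl2) needs a Jun protein as its partner, whereas Jun proteins can also pair among themselves and with ATF proteins such as Atf3. Immediate early genes are switched on within minutes of growth factors, cytokines, stretch or ischemia, without new protein synthesis, and their messages are short-lived. Egr1 and Egr2 are zinc finger transcription factors of the same early wave, and Ier3 is an early gene that acts on cell survival.

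Libraries held 41579787 to 80398211 estimated counts, of which 28.2% to 53.7% were mitochondrial. The library labelled DMSO replicate 1 stood apart from the other 5. It scored 173 on the first principal component of all genes, against -91.7 to 45.2 in the others, and 98.8% of 1780 olfactory, vomeronasal and taste receptor genes, which the heart is not known to use, had a count in it, against 52.5% to 82.6% elsewhere. LGK974 replicate 3 lay at the other end of that component. Results that rest on these libraries are therefore given with and without DMSO replicate 1, and without both libraries where these carry it.

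All 10 genes had a higher fitted level with LGK974 than with DMSO, by log2 fold changes of 0.27 (Fosb) to 0.94 (Atf3) and a median of 0.69. The median over all genes tested was -0.13, and 40.5% of all genes had a log2 fold change above 0. None of the 10 passed the test with Benjamini-Hochberg adjustment over all genes: the smallest adjusted p of edgeR's quasi-likelihood test was 0.368, and 0 of all genes (0%) passed, while 2699 genes had an unadjusted p under 0.05. Before adjustment, 4 of the 10 (Fos, Junb, Egr1 and Atf3) were higher at p under 0.05, against 6.26% of all genes, and 0 were lower, against 7.18%. In 5 of the 10 (Fos, Junb, Egr1, Egr2 and Atf3) every LGK974 library lay above every DMSO library, which held for 10.7% of all genes. On plain CPM (counts scaled to the library's total alone, with no scaling for composition) 3 of the 10 (Fos, Egr1 and Atf3) were so separated, against 4.72% of all genes. DESeq2 also called 0 of the 10 after adjustment, and called 1.22% of the genes to which it gave an adjusted p. In whole tissue, a change in the number of cells of a type and a change in RNA per cell cannot be told apart.

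The libraries at the ends of the range carried part of these differences. LGK974 replicate 3 was the highest library for 7 of the 10 genes, against 22.5% of all genes, and DMSO replicate 1 was the lowest for 8 of the 10, against 27.2%. Without DMSO replicate 1 the median log2 fold change of the 10 genes was 0.66, against -0.021 over all genes. In that set 4 of the 10 were higher at unadjusted p under 0.05, against 7.12% of all genes, and 0 passed after adjustment, against 0.0108%. Without LGK974 replicate 3 instead, 3 (Fos, Egr1 and Atf3) were higher at unadjusted p under 0.05, against 3.23% of all genes. Without both libraries the median was 0.40, against -0.014 over all genes, and 9 of the 10 genes were above 0, against 8670 of 17994. Of the 10, 3 (Fos, Egr1 and Atf3) were higher at unadjusted p under 0.05, against 4.91% of all genes.

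**Figure D1:**
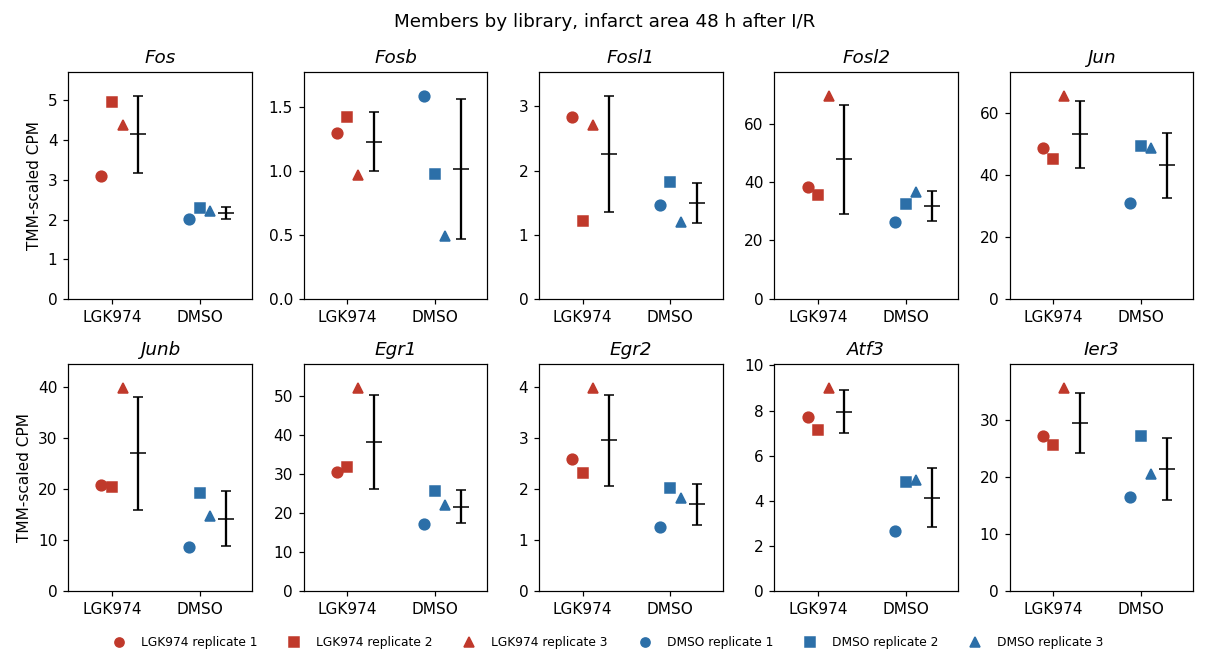
TMM-scaled CPM (vertical axes from 0) of each gene in the 3 LGK974 (red) and 3 DMSO (blue) libraries. Each point is 1 mouse, and the black marks are the mean and SD. Fos, Junb, Egr1, Egr2 and Atf3 show no overlap between the groups, and LGK974 replicate 3 is the highest point in 7 panels.

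Fos encodes c-Fos, the founding Fos protein. It lies on chromosome 12 of GRCm38 from 85473890 to 85477273 on the plus strand. Its level in CPM, that is, counts scaled to library size and edgeR's TMM factors, was 3.09, 4.96 and 4.38 in LGK974 replicates 1 to 3 and 2.01, 2.30 and 2.21 in DMSO replicates 1 to 3. On this scale the groups did not overlap, and the 3 DMSO libraries lay close together. On TPM (a level per transcript length) they overlapped, with LGK974 replicate 1 (2.09) below DMSO replicate 2 (2.37). In CPM, the means were 4.14 ± 0.961 (SD, n = 3) and 2.17 ± 0.146 (SD, n = 3), a ratio of 1.91. This is a log2 fold change of 0.93 (SE 0.305, adjusted p = 0.368 by edgeR). The log2 fold change of Fos was 0.89 without DMSO replicate 1 and 0.86 without DMSO replicate 1 and LGK974 replicate 3. These levels rest on 80 to 280 estimated counts. In DMSO replicate 1, for example, 80 counts have an exact 95% Poisson interval of 63.4 to 99.6 counts, which covers counting error only.

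Fosl2 (Fra-2) was the most abundant Fos gene. It is on chromosome 5 from 32135801 to 32157842, plus strand, and was measured at 38.3, 35.5 and 69.3 CPM with LGK974 and at 26.2, 32.6 and 36.5 CPM with DMSO. LGK974 replicate 3 was far above the rest, and LGK974 replicate 2 was below DMSO replicate 3, so the groups overlapped. Its log2 fold change was 0.59 (SE 0.279, adjusted p = 0.371 by edgeR). It was 0.28 without LGK974 replicate 3 and 0.13 without both libraries.

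Fosl1 (Fra-1) and Fosb were low. Fosl1, on chromosome 19 from 5447547 to 5455946, plus strand, stood at 2.84, 1.21 and 2.71 CPM with LGK974 and 1.46, 1.82 and 1.20 CPM with DMSO. LGK974 replicate 2 fell among the DMSO values, and the log2 fold change was 0.59 (SE 0.459, adjusted p = 0.522 by edgeR). Of the 2033 exonic bases of Fosl1, 1163 are shared with Ccdc85b on the opposite strand. The strand setting of the counting is not given in the sources used here, so reads of these genes cannot be told apart. Fosb, on chromosome 7 from 19302696 to 19310051, minus strand, gave 1.30, 1.42 and 0.971 CPM with LGK974 and 1.58, 0.972 and 0.491 CPM with DMSO. Fosb was the one gene of the 10 whose highest library was a DMSO library, namely DMSO replicate 1. Its log2 fold change was 0.27 (SE 0.586, adjusted p = 0.827 by edgeR), and 0.77 without DMSO replicate 1.

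Jun encodes c-Jun, which binds DNA with a Fos partner or as a homodimer. It is a gene of 1 exon on chromosome 4 from 95049034 to 95052222, minus strand. Its values were 48.8, 45.3 and 65.5 CPM with LGK974 and 30.9, 49.6 and 48.9 CPM with DMSO. Apart from the high LGK974 replicate 3 and the low DMSO replicate 1, the libraries of both groups lay between 45.3 and 49.6. The log2 fold change of Jun was 0.30 (SE 0.236, adjusted p = 0.524 by edgeR), and its sign turned to -0.031 without those 2 libraries. An antisense gene, Junos, shares 232 of the 3189 exonic bases of Jun.

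Junb, a Jun protein that forms less active dimers than c-Jun at many sites, is on chromosome 8 from 84974484 to 84978718, minus strand. It was measured at 20.9, 20.4 and 39.8 CPM with LGK974 and at 8.65, 19.3 and 14.7 CPM with DMSO. The groups did not overlap on this scale, but LGK974 replicate 2 and DMSO replicate 2 were close. On plain CPM and on TPM the groups overlapped. Junb had a log2 fold change of 0.93 (SE 0.359, adjusted p = 0.368 by edgeR). It was 0.68 without DMSO replicate 1, where the unadjusted p was still under 0.05, and 0.60 without LGK974 replicate 3 and 0.31 without both, where it was not. Junb shares 173 of its 2301 exonic bases with Prdx2 on the opposite strand.

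The make-up of the 2 gene families was compared on TPM (a level per transcript length), summed over all annotated transcripts of a gene, coding or not. Fosl2 held 62.6% to 73.7% of the summed TPM of the 4 Fos genes over the 6 libraries, and Fos itself 10.4% to 23.3%. The coding transcript Fosl2-201 held only 37.4% to 55.7% of the TPM of Fosl2, and Fos-201 30.5% to 76.0% of that of Fos. These are therefore shares of gene TPM and not of coding RNA. Among the Jun genes (Jun, Junb and Jund, the last of these not one of the 10), Junb held 29.5%, 29.3% and 37.8% with LGK974 and 24.5%, 27.1% and 21.5% with DMSO. The share of Jun ran the other way, at 36.8%, 34.3% and 33.0% with LGK974 and 40.6%, 37.4% and 38.4% with DMSO. Neither pair of groups overlapped. The exact two-sided permutation p was 0.1 for each, which is the smallest that 3 mice against 3 allow, and 0.35 after adjustment over the 14 shares and ratios computed. The ratio of Junb to Jun was 0.801, 0.854 and 1.15 with LGK974 and 0.603, 0.724 and 0.560 with DMSO, with the same p-values. Shares of a family add up to its whole, so the shares of Junb and Jun and their ratio are not independent results. The ratio of Fos to Jun overlapped, at 0.125 to 0.228 with LGK974 and 0.117 to 0.158 with DMSO.

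Egr1 binds GC-rich sites in promoters of growth factor, matrix and inflammatory genes. It lies on chromosome 18, on the plus strand, and was measured at 30.6, 31.8 and 51.9 CPM with LGK974 and at 17.1, 25.5 and 22.1 CPM with DMSO. All 3 LGK974 libraries lay above all DMSO libraries, also on plain CPM and on TPM. The means were 38.1 ± 12.0 (SD, n = 3) and 21.6 ± 4.26 (SD, n = 3), a ratio of 1.77. Egr1 had a log2 fold change of 0.82 (SE 0.252, adjusted p = 0.368 by edgeR), 0.69 without DMSO replicate 1 and 0.42 without both libraries. The unadjusted p of Egr1 stayed under 0.05 in all 19 alternative settings. With no filter on low counts, which raised the number of genes tested to 34257 and the share called to 3.52%, 2 of the 10 genes passed after adjustment, Egr1 (adjusted p = 0.044) and Junb (adjusted p = 0.0175).

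Egr2, on chromosome 10 from 67535475 to 67542188, plus strand, was lower, at 2.58, 2.31 and 3.98 CPM with LGK974 and 1.26, 2.03 and 1.82 CPM with DMSO. Its groups did not overlap on this scale but did on plain CPM. The log2 fold change of Egr2 was 0.80 (SE 0.386, adjusted p = 0.374 by edgeR), and 0.38 without both libraries. The corepressors of the Egr proteins, Nab1 and Nab2, are given with the regulators below.

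Atf3, a stress-induced bZIP repressor that pairs with Jun proteins, is on chromosome 1 from 191170296 to 191218039, minus strand. It was measured at 7.70, 7.15 and 8.99 CPM with LGK974 and at 2.64, 4.84 and 4.94 CPM with DMSO. The groups were well separated on this scale, with the lowest LGK974 library above the highest DMSO library by more than the range of the LGK974 libraries. The means were 7.95 ± 0.944 (SD, n = 3) and 4.14 ± 1.30 (SD, n = 3), a ratio of 1.92. On TPM the groups overlapped, with LGK974 replicate 2 (2.81) below DMSO replicates 2 and 3 (4.17 and 3.97). Atf3 had the highest log2 fold change of the 10, 0.94 (SE 0.287, adjusted p = 0.368 by edgeR). It was 0.72 without DMSO replicate 1 and 0.64 without both libraries, with an unadjusted p under 0.05 in each.

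Ier3, on chromosome 17 from 35821684 to 35822923, plus strand, was measured at 27.3, 25.7 and 35.7 CPM with LGK974 and at 16.5, 27.2 and 20.5 CPM with DMSO. LGK974 replicate 2 lay below DMSO replicate 2, so the groups overlapped. Ier3 had a log2 fold change of 0.46 (SE 0.223, adjusted p = 0.373 by edgeR), and 0.18 without both libraries.

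**Figure D2:**
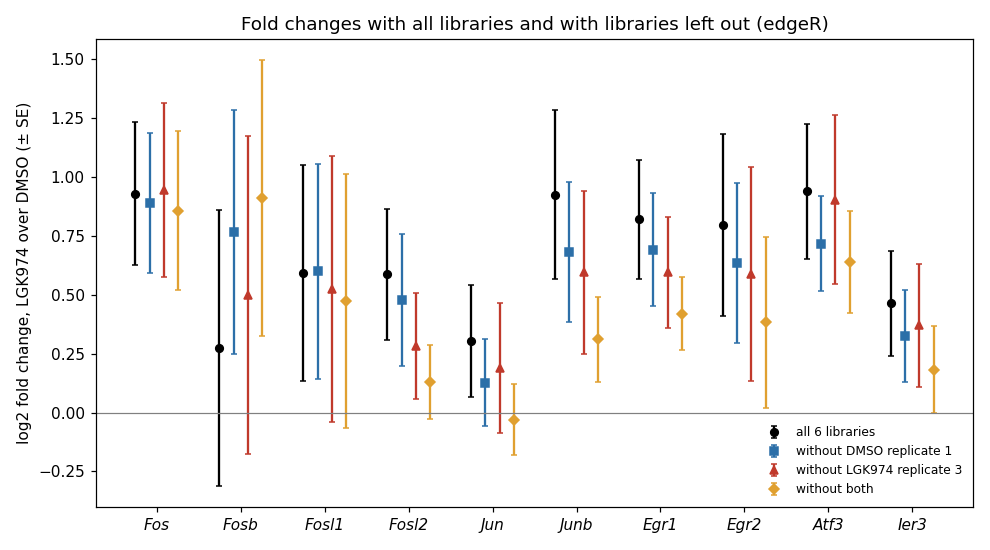
Log2 fold change (LGK974 over DMSO, edgeR, vertical axis) of each gene with its SE, with all 6 libraries (black), without DMSO replicate 1 (blue), without LGK974 replicate 3 (red) and without both (yellow). Fos and Atf3 kept at least 0.64 in each set, while Jun went from 0.30 to -0.031 and Junb from 0.93 to 0.31.

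Over all 19 alternatives, the number of settings with an unadjusted p under 0.05 was 19 for Egr1, 18 for Atf3, 17 for Fos, 16 for Junb, 6 for Fosl2, 2 for Ier3, 1 each for Fosl1 and Egr2, and 0 for Fosb and Jun. The 3 settings in which Junb was not under 0.05 include those without LGK974 replicate 3 and without both libraries. A p over the threshold does not show that Jun or Fosb was at the same level in both groups.

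Compared per length, Ier3 had the highest level of the 10, with a mean of 28.0 TPM over the 6 libraries, followed by Jun at 16.5, Junb at 14.3, Fosl2 at 11.1, Egr1 at 10.3, Atf3 at 5.31, Fosl1 at 2.37, Fos at 2.33, Egr2 at 1.92 and Fosb at 0.303 TPM. Ier3 was above Jun, Egr1 above Atf3, Atf3 above Fosl1 and Egr2 above Fosb in all 6 libraries. Other neighbours changed places between libraries, Fosl2 being above Egr1 in 3 of 6 and Fosl1 above Fos in 2 of 6. Fos, the gene most often used as a sign of recent stimulation, was thus among the low genes of the list at this time point. On TPM, LGK974 replicate 3 was the highest library for each of the 10 genes, as it was for 60.1% of all genes tested, and 2 of the 10, Egr1 and Egr2, had groups that did not overlap with LGK974 higher, against 3.53% of all genes. For Egr2 this depends on TPM assigned to shorter transcripts with few counts. Its transcript Egr2-201 alone overlapped, at 0.454, 0.436 and 1.66 TPM with LGK974 and 0.139, 0.653 and 0.467 TPM with DMSO.

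**Figure D3:**
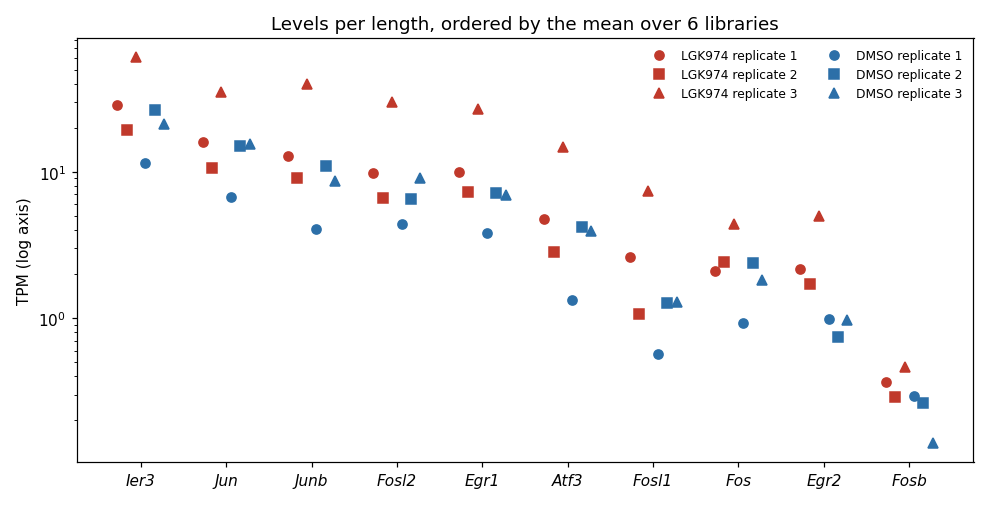
TPM (log axis) of the 10 genes in each library, ordered by the mean over 6 libraries, with LGK974 in red and DMSO in blue. Levels span from 60.8 TPM (Ier3 in LGK974 replicate 3) to 0.140 TPM (Fosb in DMSO replicate 3).

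The lowest genes need the receptor gene background beside them. The median of the 1780 receptor genes was 8.94, 2.58 and 0.754 counts per kb in LGK974 replicates 1 to 3 and 28.1, 9.69 and 1.65 in DMSO replicates 1 to 3. Fosb was below that median in DMSO replicates 1 and 2 (0.359 and 0.777 times) and at most 13.2 times above it elsewhere. Egr2 was below it in DMSO replicate 1 (0.523 times), where Fosl1 (1.01 times), Fos (1.21 times) and Atf3 (1.73 times) were close to it. The part of this background in the levels of these 5 genes was not tested. In the other 5 libraries Fos was 4.87 to 158 times and Atf3 11.2 to 353 times the receptor gene median. Ier3, Jun, Junb, Egr1 and Fosl2 were at least 3.83 times above it in every library.

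**Figure D4:**
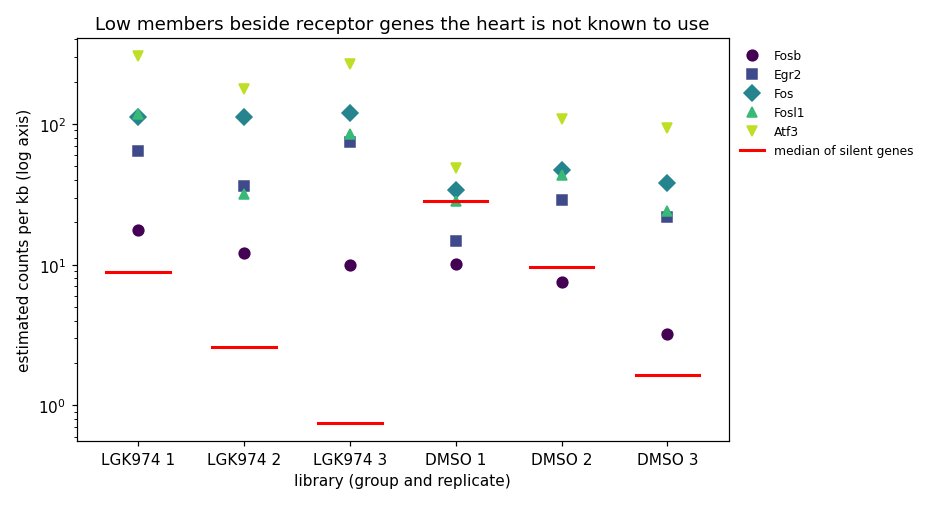
Estimated counts per kb (log axis) of the 5 lowest genes by library, with the median of 1780 receptor genes as a red bar. In DMSO replicate 1 the bar stands at 28.1 and lies above Fosb and Egr2, while in LGK974 replicate 3 it stands at 0.754.

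Several of the 10 genes are quantified as more than 1 annotated transcript. Jun and Ier3 have 1 each. The coding transcript Junb-201 held 82.9% to 100% of the TPM of Junb. For Fos, the coding transcript Fos-201 held 64.6%, 63.1% and 76.0% of the TPM with LGK974 and 64.1%, 30.5% and 43.5% with DMSO, the rest being assigned to short processed transcripts. Atf3-201 held 84.7%, 100% and 44.1% with LGK974 and 45.9%, 50.2% and 59.4% with DMSO. Egr2-201 held 14.1% to 88.2% of the TPM of Egr2, and Fosl1-201 held 26.9% to 100% of that of Fosl1. Fosl1-203, of 357 bases, held 67.7% in LGK974 replicate 3 on 34.4 estimated counts, so the order of Fosl1 and Fos on TPM is uncertain. For Fosl2, the transcripts annotated with a retained intron, a pair of them, held 18.7% to 26.7% and 25.6% to 41.7% of its TPM. At the counts of Fosb, the leading transcript differed from library to library (Fosb-201, Fosb-203 or Fosb-207). These shares are estimates of how the program divided reads, and no error is given for them.

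The instability of such messages is tied to AU-rich elements in the 3′ untranslated region (UTR), where the pentamer ATTTA in DNA letters is the core. In the transcript of each gene with the highest mean TPM among coding transcripts with a complete 3′ end, all 10 genes held at least 1 ATTTA, against 64.7% of 17487 tested protein-coding genes, and 80.7% of the 11146 genes whose UTR was as long as those of the 10 (485 to 4653 bases). The longer TATTTAT was found in 7 of the 10 genes (not in Junb, Egr1 or Egr2), against 27.3% of all and 34.6% of those of like length. Ier3 was densest, with 5 ATTTA in 613 bases, followed by Fos with 4 in 815 and Junb with 2 in 485. These are matches of letters, not measured sites of decay. The first TATTTAT of 4 genes is printed with 10 bases on either side, 5′ to 3′ on the gene's strand, to show the element that early genes of different families share. Capitals mark ATTTA.
Fos: gttttcaATTTATTTAttaagatggat
Ier3: gtctaattaatATTTAtgtATTTAtgt
Atf3: aaatattacttATTTAtcccagtattc
Jun: tgcttgtgcatATTTAtaatagcgttc
They lie in GRCm38 at chr12:85477104-85477130 (plus strand, Fos), chr17:35822482-35822508 (plus, Ier3), chr1:191170339-191170365 (minus, Atf3) and chr4:95049080-95049106 (minus, Jun). Fos and Ier3 show overlapping or repeated pentamers within these 27 bases, and Atf3 and Jun a single one.

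The promoters were read from RefSeq windows of GRCm38.p6 that run from 250 bases before to 50 bases after a start site. Windows were matched for 8 of the 10 genes (not for Fosl1 and Egr1). Both strands were searched for 6 motifs. The CRE (TGACGTCA) and the AP-1 site (TGACTCA, or TGAGTCA on the other strand), present in windows of 2.03% and 5.95% of 27025 symbols, had no exact match in the 8 genes, nor did the Egr motif GCGTGGGCG (0.707%). The second Egr motif, GCGGGGGCG, was matched in Fosb and Fosl2 (3.31% of symbols), where for Fosl2 all 250 bases before the RefSeq start site lie in exons annotated by GENCODE, so that the match is in transcribed sequence. The TATA motif TATAAA was matched in Fos and Junb (15.7% of symbols). In Junb the match began at the RefSeq start site. With 10 bases on either side it lies at chr8:84978733-84978758 (minus strand), before the GENCODE 5′ end of Junb at 84978718. The CArG box, the site of serum response factor, was matched in Egr2 (1.81% of symbols), in 2 places near different start sites. Since serum response factor at CArG boxes is the textbook switch of early genes, the Egr2 matches are printed with the TATA match of Fos, motif in capitals.
Egr2 first: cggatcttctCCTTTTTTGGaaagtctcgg
Egr2 second: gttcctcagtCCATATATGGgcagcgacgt
Fos: acagcgcttcTATAAAggcgccagct
They lie at chr10:67537484-67537513, chr10:67537787-67537816 and chr12:85473847-85473872, all on the plus strand. A match is a description of the letters and was not tested for binding, and the absence of a match says nothing of the factor.

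The genes of the same pathway were followed in 4 lists of 77 genes, of which 76 were tested (Egr4 was not). Among 10 other AP-1 subunits and bZIP partners, 0 passed the test after adjustment and 0 had an unadjusted p under 0.05 in either direction, with a median log2 fold change of 0.095. Mafk, a small Maf protein, had a log2 fold change of 0.30 (SE 0.166, adjusted p = 0.41 by edgeR) and Batf2, a bZIP factor of immune cells, of 0.99 (SE 0.559, adjusted p = 0.413). Jund, a Jun protein that is present without stimulation in most cells, was at 0.28 (SE 0.252, adjusted p = 0.578), and at -0.042 without both libraries named above. The response of Jun was set against those of Fos, Junb, Egr1 and Atf3 only by ratios within libraries. The exact permutation p, adjusted over the 14 shares and ratios, was 0.817 for Fos to Jun and 0.525 for Atf3 to Jun. It was 0.35 for Junb to Jun and for Egr1 to Jun, and 0.525 for the share of Jund in the Jun family. Whether the other partners differed in their response from Fos, Junb and Atf3 was not tested.

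Of 33 other immediate early genes tested, 10 were higher and 1 lower at unadjusted p under 0.05 (against 6.26% and 7.18% of all genes), 12 had no overlap with higher values under LGK974 (against 10.7%), and the median log2 fold change was 0.51. Those with the smallest p were Plk2, a stress-induced kinase, at 0.77 (SE 0.181), Ccn2, the matricellular protein known as CTGF, and Ier5 at 0.59 (SE 0.200), each with an adjusted p of 0.368 by edgeR. Ccn2 was measured at 391, 268 and 447 CPM with LGK974 and at 146, 239 and 167 CPM with DMSO, without overlap and with a ratio of means of 2.01. The gene that was lower, named after its values were seen, was Per1, a clock gene, at -0.66 (SE 0.230). The median log2 fold change of this list was 0.41 without DMSO replicate 1 and 0.14 without both libraries.

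Of 19 upstream regulators and corepressors, 2 were higher and 1 lower at unadjusted p under 0.05, shares of 10.5% and 5.26% that are near those of all genes (6.26% and 7.18%). The median log2 fold change was 0.060, and turned to -0.019 without DMSO replicate 1 and to -0.048 without both libraries. Both that were higher were the corepressors of Egr proteins, Nab1 at 0.40 (SE 0.141) and Nab2 at 0.60 (SE 0.255), and the one that was lower was Mapk10, which encodes the kinase JNK3, at -0.46 (SE 0.187), all with an adjusted p of 0.368 by edgeR. Nab2 was measured at 13.1, 13.3 and 17.3 CPM with LGK974 and at 6.74, 12.6 and 9.43 CPM with DMSO, with no overlap, and its log2 fold change without both libraries was 0.29.

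Of 14 genes known as AP-1 targets, 6 were higher and 0 lower at unadjusted p under 0.05, against 6.26% and 7.18% of all genes, with a median log2 fold change of 0.56. Hmox1, the heme oxygenase, was measured at 96.7, 91.1 and 123 CPM with LGK974 and at 46.9, 57.0 and 57.0 CPM with DMSO. Its log2 fold change was 0.95 (SE 0.183, adjusted p = 0.368 by edgeR, adjusted p = 0.00244 by DESeq2). Cd44, the hyaluronan receptor, was at 0.91 (SE 0.178, adjusted p = 0.368 by edgeR and 0.00592 by DESeq2), and Timp1, an inhibitor of metalloproteinases, at 1.20 (SE 0.306, adjusted p = 0.368 by edgeR and 0.0137 by DESeq2). With Ccn2 (adjusted p = 0.0206) these were the 4 genes of the lists that DESeq2 called. The median log2 fold change of this list was 0.72 without DMSO replicate 1 and 0.66 without both libraries.

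**Figure D5:**
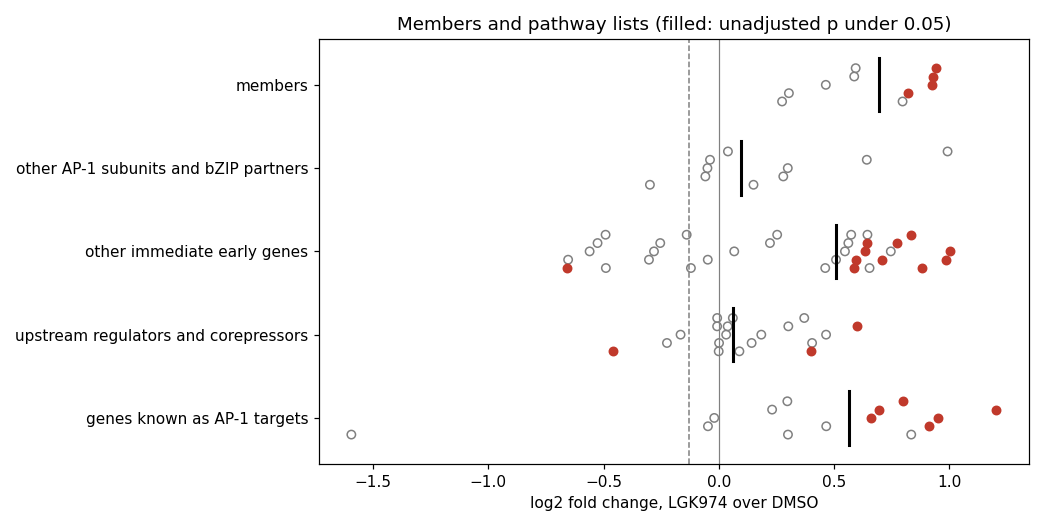
Log2 fold change (LGK974 over DMSO, edgeR, horizontal axis) of the 10 genes ("members") and of the 4 lists. Each point is a gene, filled where the unadjusted p was under 0.05, black bars are list medians, and the dashed line is the median of all genes tested (-0.13). Medians were 0.69, 0.095, 0.51, 0.060 and 0.56 from top to bottom.

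Markers of cell types moved with the groups too. All 12 leukocyte markers had a log2 fold change above 0, against 40.5% of all genes, with a median of 0.93. Of these markers 11 were higher at unadjusted p under 0.05, against 6.26% of all genes. Their summed level was 635, 577 and 729 CPM with LGK974 and 306, 378 and 335 CPM with DMSO, without overlap, and the median was 0.71 without both libraries. Lyz2, the lysozyme of macrophages and neutrophils, was at 1.30 (SE 0.237, adjusted p = 0.368 by edgeR), Cd53 at 1.07 and Adgre1, the macrophage marker F4/80, at 0.88. After adjustment DESeq2 called 6 of the 12, against 1.22% of all genes to which it gave an adjusted p. Among the 6 were Lyz2 (adjusted p = 0.000278 by DESeq2), Cd53 (0.0212) and Adgre1 (0.0271). By contrast, the study's flow cytometry of whole hearts at this time point counted fewer leukocytes and inflammatory monocytes with LGK974, in other mice. Why marker RNA and cell counts went in different directions was not tested. Of the 8 fibroblast markers, all were above 0 and 3 (Col3a1, Col1a2 and Col1a1) were higher at unadjusted p under 0.05, against 40.5% and 6.26% of all genes. DESeq2 called these 3 after adjustment. The sum of the 8 was 3092 to 5337 CPM with LGK974 and 1570 to 2286 CPM with DMSO. Of the 10 cardiomyocyte markers, 9 were below 0, with a median of -0.43, and 1, Actc1, was higher at unadjusted p under 0.05 (log2 fold change 0.86, adjusted p = 0.368 by edgeR and 0.0449 by DESeq2). Their sums, 40535 to 58330 CPM with LGK974 and 47067 to 65282 CPM with DMSO, overlapped, and their abundance goes with the label of heart tissue.

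Of the 8 neutrophil markers 5 were tested (Retnlg, Ly6g and Ngp were not), and their summed level was 32.9 to 46.0 CPM with LGK974 and 40.3 to 79.8 CPM with DMSO, the highest being DMSO replicate 1. Of these 5, 1 was lower at unadjusted p under 0.05, the chemokine receptor gene Cxcr2, at -1.03 (SE 0.432, adjusted p = 0.368 by edgeR), and at -0.28 without DMSO replicate 1. Mmp8, a neutrophil collagenase, was at 1.02 (SE 0.531, adjusted p = 0.389 by edgeR). Without DMSO replicate 1 it was at 1.63, higher at unadjusted p under 0.05 (adjusted p = 0.303 by edgeR). Medians were 0.033 for the 8 endothelial and 0.22 for the 6 smooth muscle and pericyte markers, with 0 genes of either at unadjusted p under 0.05. AP-1 and early genes are used by most of these cell types, and the part of cell mixture in the differences of the 10 genes was not tested.

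The Pearson r between the log2 CPM of the 10 genes ranged from -0.51 to 0.99 over 45 pairs, with a median of 0.80. Over the 36 pairs without Fosb it ranged from 0.24 to 0.99, with a median of 0.86, over 6 libraries that share their group, depth and composition. The mean of their z-scores was 0.394, 0.210 and 1.23 with LGK974 and -1.08, -0.154 and -0.608 with DMSO. The tested genes most like this mean were Plk3 (r = 0.998), Elf4 (0.997), Rrp12 (0.997), Tagln2 (0.996) and Alg3 (0.996), and 1193 genes had an r above 0.9. Plk3, itself on the list of early genes, was measured at 5.78, 5.54 and 8.13 CPM with LGK974 and at 3.29, 4.57 and 4.05 CPM with DMSO.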

How the data were processed

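RNA-seq of the infarct area was analysed for 3 LGK974 and 3 DMSO libraries, grouped by the sample labels. Total RNA was depleted of ribosomal RNA, and libraries were made with a capture kit. The authors quantified transcripts with kallisto on an index of Ensembl GRCm38 transcripts and deposited, for each of 118489 transcripts, an estimated count and a TPM value. The version and the strand setting are not given in the sources used here. Reads shared by transcripts were split by the program, so overlapping genes and isoforms are uncertain.

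Transcripts (98.588%) were joined to genes through GENCODE M21, and the estimated counts of a gene's transcripts were added and then rounded. Depth was 41579787 to 80398211 counts per library, and for all but the lowest genes the spread between mice exceeded counting error. The quasi-likelihood test of edgeR 4.0.16 (under R 4.3.3), with TMM scaling and no covariate, was run on genes that reached 10 counts in 3 or more libraries, and p-values were adjusted over all genes by Benjamini-Hochberg (threshold 0.05). The unadjusted counts used p under 0.05. TPM values of the authors gave levels per length. Exact permutation tests were two-sided. Alternatives were DESeq2 1.42.0, limma 3.58.1 (voom, with and without sample weights), other scalings and filters, counts scaled from TPM, protein-coding genes only, the replicate block and leaving out each library. Leaving out DMSO replicate 1 with DESeq2, and DMSO replicate 1 with LGK974 replicate 3, was chosen after seeing the data. On simulated data with known changes, DESeq2 made more false calls than edgeR or limma at the fitted dispersions. The means and these dispersions came from the edgeR fit, and no simulated library stood apart as DMSO replicate 1 does. The simulation therefore cannot rank the tests on these data. Figures were made with matplotlib 3.10.9.

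The 10 genes and the lists were chosen with earlier results of these data known. From each list, up to 3 genes with the smallest p were named, and the 5 genes most correlated with the mean of the 10. The planned comparison of protein sequences was not run.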

Additional observations from a re-analysis of the deposited data

How the results depend on the processing

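Of 19 alternatives, 18 gave 0 of the 10 early genes an adjusted p under 0.05, and with no filter on low counts 2 passed (Junb, adjusted p = 0.0175, and Egr1, adjusted p = 0.044). The number of the 10 higher at unadjusted p under 0.05 ran from 3 to 6 and the number lower was 0 throughout. Over all genes, those at unadjusted p under 0.05 in either direction also varied widely. They numbered 821 of 19712 without LGK974 replicate 3, 4628 of 19948 without DMSO replicate 3 and 4790 of 34257 with no filter. Of the 4 lists, 0 genes passed after adjustment in the edgeR fit with all libraries, 6 with no filter, 4 with DESeq2, 2 with limma-voom with sample quality weights and 6 with DESeq2 without DMSO replicate 1. List genes lower at unadjusted p under 0.05 numbered 2, against 0 with no filter, 1 with DESeq2, 4 with quality weights, 4 with DESeq2 without DMSO replicate 1, and 0 to 4 with 1 library left out (4 without DMSO replicate 1). List genes higher numbered 18, against 9 without DMSO replicate 1 and LGK974 replicate 3 and 8 (without LGK974 replicate 3) to 23 (without DMSO replicate 3) with 1 library left out. Of the 76 list genes tested, 19 turned sign without DMSO replicate 1 and LGK974 replicate 3. Among the genes named in the text, the sign turned for Jun (-0.031), Jund (-0.042), Egfl7 (-0.054) and Tagln (-0.065) without DMSO replicate 1 and LGK974 replicate 3, and for Csf3r (0.122) with counts scaled from TPM. The cause was not tested.

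Replicate numbers are shared by the groups but the mice are different animals. Deviations from the group means correlated at 0.475, -0.048 and 0.391 for the same number, and at a mean of -0.136 for different numbers. Deviations cancel within a group, so higher values for the same number are tied to lower ones for different numbers, and these values are not independent. The main fit did not pair the libraries, and whether the numbers mark a shared batch was not tested. With the replicate block, 0 of the 10 genes and 0 list genes passed after adjustment, and 1 list gene was lower at unadjusted p under 0.05, against 2 without it. Counting error is widest for Fosb, Fosl1, Egr2 and Fos, which had 20 to 280 counts a library.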
